A study of Homo sapiens with 6 samples.

Results

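The endothelin system was followed through the parental A549 cells and their MIR21-deleted derivatives as the mRNAs of 6 genes among the 58174 listed in the expression table: the peptide precursors EDN1 and EDN2, the converting enzymes ECE1 and ECE2, and the receptors EDNRA and EDNRB. The genes were taken by symbol. EDN1 was selected on its fall in FPKM from Ctrl to MIR21-KO, so its values are a description without a test, and the others were taken as the rest of its system. A549 is an established line of human lung adenocarcinoma cells. The Ctrl group comprised 3 libraries of parental A549 cells. The MIR21-KO group comprised 3 libraries of A549 cells lacking MIR21, which had been cut out by CRISPR/Cas9 with paired guides and grown up from single sorted cells. All cells were untreated otherwise and were harvested 48 h after seeding for polyA-selected RNA-seq. How many clones the MIR21-KO libraries represent is not given in the sources used here, so that effects of the deletion and differences between a clone and its parental population cannot be told apart. The study describes the samples of a group as independent, while the labels give no culture or clone for each library, so FDRs measure the spread between these libraries, whatever number of clones they represent.

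Endothelins are small peptides best known as strong constrictors of blood vessels and airways, and as growth factors for several tumour types. They are made as long precursors that are first trimmed by furin-type proprotein convertases to an inactive big endothelin, which the endothelin-converting enzymes then cut to the active peptide. The peptide acts on the receptor ETA (EDNRA), which couples mainly to Gq and raises cell calcium, or on ETB (EDNRB), which in the lung also clears endothelin. Endothelial cells are the classical source of endothelin-1, and airway epithelial cells make it as well.

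Values are FPKM, in which fragments are scaled to the listed length of the gene and to the library. Levels of different genes can be set side by side as far as that length fits the transcripts expressed. The recovered reads summed to between 10631667 and 14345209 per library. The row of MIR21 itself was at 0 in all 6 libraries and is no check of the deletion in polyA-selected RNA. VMP1, the gene that MIR21 overlaps, rose from 75.1 ± 3.83 to 142.5 ± 7.18 FPKM (SD, n = 3 each) with an FDR of 0.000473 in limma. The summed level of 5 epithelial markers was 1194 to 1288 FPKM in Ctrl and 775.9 to 1106 FPKM in MIR21-KO libraries. KRT8 and KRT18 supplied most of these sums. Among the markers CDH1 (E-cadherin) fell from 8.18 to 2.86 FPKM on average (FDR 0.000175 in limma). EPCAM, KRT8 and KRT18 were lower and KRT19 was higher on average, but none of these was called (FDRs 0.273, 0.207, 0.0153 and 0.206 in limma). Of the 6 endothelial markers, 5 (PECAM1, CDH5, VWF, KDR and CLDN5) had at most 3 reads in every library, and the list of 6 summed to at most 0.154 FPKM. The remaining marker, TEK, had 3, 0 and 1 reads in Ctrl and 6, 4 and 7 reads in MIR21-KO replicates 1 to 3. The 6 mural and fibroblast markers summed to 5.49 to 6.18 FPKM in Ctrl and to 10.7 to 11.7 FPKM in MIR21-KO libraries, with COL1A2 at 0. Of these, THY1 rose from 2.28 to 7.15 FPKM on average (FDR 0.000590 in limma), while COL1A1 was at 3.41 and 3.91 FPKM (FDR 0.334). The 4 immune markers summed to 3.32 to 3.80 FPKM in Ctrl and 3.33 to 5.38 FPKM in MIR21-KO libraries, with CD3E at 0. Nearly all of this was CD14, at 3.46 and 4.31 FPKM on average (FDR 0.285 in limma), while PTPRC had at most 2 reads in a library. The part of these shifts in the results was not tested.

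The miRNA lost in MIR21-KO cells is miR-21-5p, shown here because its seed decides which 3′ UTR letters were searched in the endothelin mRNAs. The mature sequence (RefSeq, GRCh38.p14, chr17:59841273-59841294, plus strand) is given with its seed, bases 2 to 8, in capitals, together with let-7a-5p (chr9:94175962-94175983, plus strand), whose family was chosen with earlier results of these data known.
hsa-miR-21-5p: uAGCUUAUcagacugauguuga
hsa-let-7a-5p: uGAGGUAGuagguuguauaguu
The letters complementary to the seed of miR-21-5p, ATAAGCT, occurred in none of the longest annotated 3′ UTRs of EDN1, EDN2, ECE1, ECE2 and EDNRA, which run from 634 bases in EDN2 to 2708 bases in ECE1. Only the 3′ UTR of EDNRB held them, beginning at its base 1661 and followed by an A, and EDNRB had no reads in these cells. Over the 11658 tested genes with such a 3′ UTR, 10.6% held these letters and 2.98% held them followed by an A. The letters complementary to the let-7 seed, CTACCTC, were found once among the members, in the 3′ UTR of EDN1 from base 572 of 1127, again followed by an A, compared with 12.6% of the tested genes for the letters alone and 5.08% with the A. Both matches are shown with the matched letters in capitals, for EDN1 from GRCh38 chr6:12296624-12296653 on the plus strand and for EDNRB from chr13:77896525-77896554 on the minus strand.
EDN1 let-7 match: ttcatgaatatgagtCTACCTCacctatat
EDNRB miR-21 match: ggccacatgttggaaATAAGCTagtaatgt
A match of letters is a description of the sequence and not a measured binding site.

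Among the ligands, EDN1 was abundant in parental A549 cells and low after the deletion. EDN1 (ENSG00000078401, chromosome 6, 12290363 to 12297194, plus strand, 5 exons, 2033 exonic bases in GRCh38) encodes the precursor of endothelin-1. Its level was 27.0, 25.3 and 29.0 FPKM in Ctrl replicates 1 to 3, and 3.36, 3.94 and 3.64 FPKM in MIR21-KO replicates 1 to 3. All 3 MIR21-KO libraries lay far below the lowest Ctrl library. Of all 16006 genes tested, 48.1% had groups that did not overlap, in either direction. EDN1 was chosen for this fall, so its gap, SE and interval are a description and no support for a change. The means were 27.1 ± 1.85 and 3.65 ± 0.290 FPKM (SD, n = 3 each), and the log2 fold change, MIR21-KO over Ctrl on the log2(FPKM + 0.1) scale, was -2.86 with an SE of 0.093. Behind these values stood 554 to 807 reads per Ctrl library and 93 to 98 reads per MIR21-KO library. The pooled level was thus 7.50 times higher in Ctrl, with a 95% counting interval of 6.63 to 8.52 that covers counting error only, and the MIR21-KO level was lower by 86.7%. In RNA of bulk cultures, fewer expressing cells and less RNA per cell cannot be told apart. Ordered by mean level among the 19799 listed protein-coding genes, EDN1 ranked 1663 in Ctrl and 7852 in MIR21-KO. Of the 16006 genes that averaged 0.5 FPKM or more, EDN1 had the 59th lowest fold change. Across 16 alternative settings the log2 fold change of EDN1 ranged from -2.92 to -2.60.

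EDN2 (ENSG00000127129, chromosome 1, 41478775 to 41484673, minus strand, 5 exons), the precursor of endothelin-2, was the other ligand with reads. It was present at 1.58, 1.36 and 1.20 FPKM in Ctrl replicates 1 to 3, from 33, 24 and 27 reads. In MIR21-KO replicates 1 to 3 it was at 0.134, 0 and 0.0470 FPKM, from 3, 0 and 1 reads. EDN2 was thus a minor transcript in parental cells and close to the limit of detection in every MIR21-KO library, where 3 reads on this gene are worth 0.134 to 0.170 FPKM over the 6 libraries. Pooled over libraries, 84 Ctrl reads stood against 4 MIR21-KO reads, a level 21.9 times higher in Ctrl with a 95% counting interval of 8.26 to 82.4. EDN2 fell with a log2 fold change of -3.29 (SE 0.47) and an FDR of 0.00312 in limma over all genes tested. This call was lost, at FDRs of 0.0288, 0.0231 and 0.0215, without Ctrl replicate 1, 2 or 3, and the fitted log2 fold change depended on the added constant, from -1.17 with 1 FPKM to -4.99 with 0.01 FPKM, where the FDR was 0.0174. EDN3, the precursor of endothelin-3, was listed at 0 in every library.

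The promoters of both ligands with reads are shown, since both were lower in every MIR21-KO library, from 250 bases before to 50 bases after a RefSeq start site (GRCh38.p14). For EDN1 (chr6:12290111-12290410, plus strand, start site 12290361) the last of its 3 listed starts was taken, next to the annotated start of the gene. EDN2 (chr1:41484634-41484933, minus strand, start site 41484683) has 1 start in the table.
EDN1 promoter: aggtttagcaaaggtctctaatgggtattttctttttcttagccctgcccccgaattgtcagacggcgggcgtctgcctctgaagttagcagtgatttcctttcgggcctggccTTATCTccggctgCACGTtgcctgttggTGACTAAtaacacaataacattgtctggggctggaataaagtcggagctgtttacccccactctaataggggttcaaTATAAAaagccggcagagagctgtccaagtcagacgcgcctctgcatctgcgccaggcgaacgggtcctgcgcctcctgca
EDN2 promoter: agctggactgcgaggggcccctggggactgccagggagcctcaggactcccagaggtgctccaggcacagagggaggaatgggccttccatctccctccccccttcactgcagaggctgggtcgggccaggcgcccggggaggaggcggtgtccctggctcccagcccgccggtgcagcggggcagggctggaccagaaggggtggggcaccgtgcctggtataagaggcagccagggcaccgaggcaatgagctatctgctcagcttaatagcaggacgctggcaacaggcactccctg
The capitals mark matches, on either strand, to 4 short motifs that were picked with the EDN1 sequence in view. In the EDN1 promoter these were TTATCT, the reverse complement of the GATA letters AGATAA, beginning 136 bases before the start site, CACGT, the reverse complement of the hypoxia response core ACGTG, at 123 bases, the AP-1-like TGACTAA, from a search for TGACTNA, at 108 bases, and the TATA box TATAAA at 31 bases. Over all 35116 promoters in the table, 10.3% held the GATA letters, 21.4% the hypoxia core, 11.7% the AP-1-like letters and 11.5% TATAAA. The EDN2 promoter held none of the 4, as did the windows of ECE1 and EDNRA, and that of EDNRB held CACGT at 196 bases before its start.

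**Figure D1:**
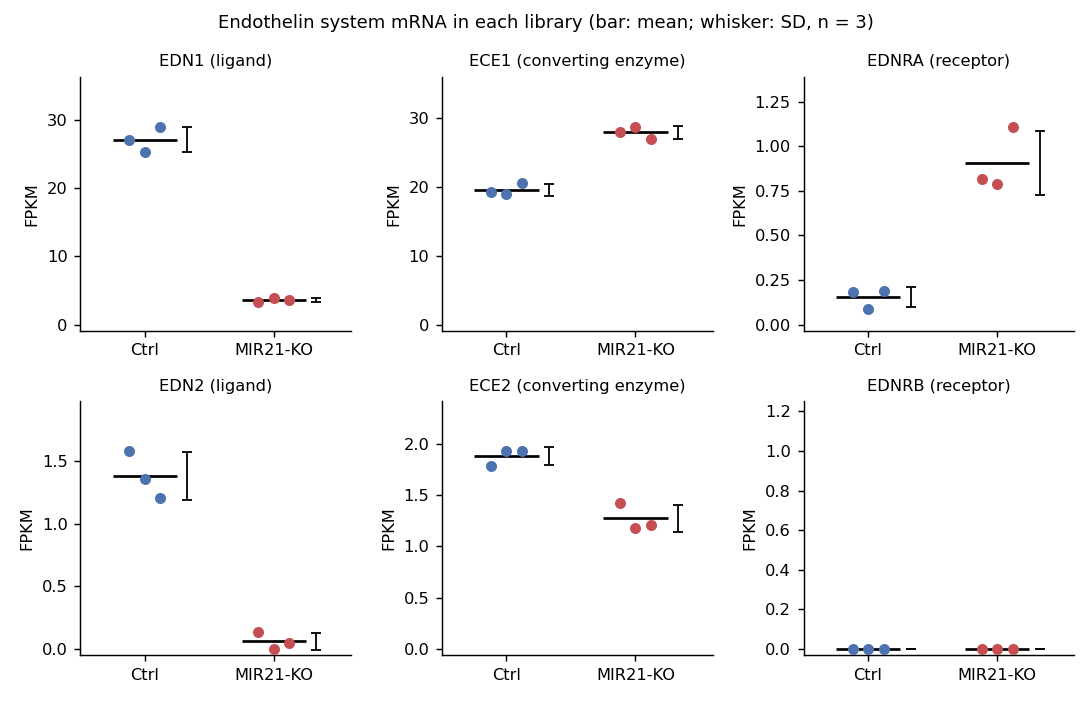
FPKM of the 6 endothelin system genes in each library, with Ctrl in blue, MIR21-KO in red, the mean as a bar and the SD as a whisker (n = 3), each panel on its own linear axis from 0. EDN1 lies at 25.3 to 29.0 FPKM in Ctrl and at 3.36 to 3.94 FPKM in MIR21-KO, EDN2 is near 0 in MIR21-KO, ECE1 and EDNRA are higher there, and EDNRB is at 0 throughout.

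Of the converting enzymes, ECE1 was higher in MIR21-KO and ECE2 was low in both groups. ECE1 (ENSG00000117298, chromosome 1, 21217247 to 21345572, minus strand, 20 exons), the main membrane-bound endothelin-converting enzyme, was at 19.3, 18.9 and 20.6 FPKM in Ctrl replicates 1 to 3. It was at 28.0, 28.8 and 27.0 FPKM in MIR21-KO replicates 1 to 3. Each MIR21-KO library was above each Ctrl library, and the means of 19.6 ± 0.872 and 27.9 ± 0.884 FPKM (SD, n = 3 each) differed by several times the spread. ECE1 rose with a log2 fold change of 0.51 (SE 0.069) and an FDR of 0.00250 in limma, and its pooled level was 1.42 times higher in MIR21-KO (95% counting interval 1.37 to 1.47). The call was lost without Ctrl replicate 1, 2 or 3 and without MIR21-KO replicate 2, at FDRs of 0.0173, 0.0169, 0.0128 and 0.0198, while the log2 fold change stayed within 0.47 to 0.55 under all 16 alternatives.

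ECE2 (ENSG00000145194, chromosome 3, 184276011 to 184293031, plus strand), a related enzyme known for activity at acidic pH, was low throughout. Its level was 1.79, 1.93 and 1.93 FPKM in Ctrl and 1.42, 1.18 and 1.21 FPKM in MIR21-KO replicates 1 to 3. The groups did not overlap, but the log2 fold change of -0.53 (SE 0.15) had an FDR of 0.0311 in limma and was not called, with FDRs between 0.0115 and 0.114 under the alternatives. The ECE2 row may hold reads of a neighbour as well. Its listed length of 6552 bases equals the joint exons of ECE2, of the adjacent methyltransferase gene EEF1AKMT4 and of the read-through transcript between them, whereas the exons of ECE2 alone cover 4729 bases. EEF1AKMT4 and the read-through gene have no row of their own under these names.

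On the receptor side, EDNRA (ENSG00000151617, chromosome 4, 147480917 to 147544954, plus strand, 8 exons), which encodes ETA, was higher in each MIR21-KO library but remained a rare transcript. It was at 0.185, 0.0878 and 0.190 FPKM in Ctrl replicates 1 to 3, from 10, 4 and 11 reads. In MIR21-KO replicates 1 to 3 it was at 0.814, 0.790 and 1.11 FPKM, from 47, 41 and 61 reads. Pooled over libraries, 149 MIR21-KO reads stood against 25 Ctrl reads, a level 5.70 times higher in MIR21-KO with a 95% counting interval of 3.72 to 9.10. The log2 fold change of 1.99 (SE 0.41) had an FDR of 0.0110 in limma and just missed the threshold of 0.01. FDRs ranged from 0.000893 with limma's voom on recovered reads to 0.0411, and EDNRA passed the threshold there as well as with a constant of 1 FPKM (0.00646), without a filter on low values (0.00760) and without trend and robust fitting (0.00288). Without any single MIR21-KO library its mean fell under 0.5 FPKM and it was not tested. EDNRB (ENSG00000136160, chromosome 13, 77895481 to 77975529, minus strand), which encodes ETB, had 0 reads in all 6 libraries, which allows a level of up to 0.0437 to 0.0556 FPKM depending on the library. EDNRB.AS1, the only other listed symbol containing that of a member, was at 0 in all libraries too.

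Read across the system, the order of levels changed between the groups. In Ctrl cells EDN1 was highest, followed by ECE1, ECE2, EDN2 and EDNRA, with EDNRB at 0, and no neighbours in this order overlapped. In MIR21-KO cells ECE1 was highest, followed by EDN1, ECE2 and EDNRA, and EDN2 at the end overlapped with EDNRB at 0. The ratio of EDN1 to ECE1 FPKM was 1.40, 1.34 and 1.41 in Ctrl replicates 1 to 3, against 0.120, 0.137 and 0.135 in MIR21-KO replicates 1 to 3. Hence the FPKM of EDN1 was above that of ECE1 in every Ctrl library and below it in every MIR21-KO library. FPKM was scaled to listed lengths of 2033 bases for EDN1 and 7265 bases for ECE1. Which ECE1 transcripts were expressed was not examined, so the modest Ctrl ratio does not settle which mRNA had more copies. These ratios rest on EDN1, which was chosen for its fall.

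Besides EDN1, 4 members were tested, of which ECE1 was called higher and EDN2 lower. Over all 16006 genes tested the called share was 16.0%, with 7.66% higher and 8.38% lower. The groups did not overlap for any of these 4, which was also true of 48.1% of all genes tested. EDN2 and EDNRA passed the filter on low values only through the group in which they were high, so these counts are a description and no support for a change of the system as a whole.

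The precursor-trimming and clearing enzymes were examined next (12 genes, of which 4 were tested). At an FDR under 0.01 in limma 2 rose and 0 fell, beside 7.66% and 8.38% of all genes tested. Of the 4, 3 had an unadjusted p under 0.05 and were called by voom, including PCSK6 in the lower direction. Over all 16006 genes tested, 6910 had an unadjusted p under 0.05 in limma and voom called 3496. The median log2 fold change of the 4 was 0.44, against -0.02 over all genes tested. FURIN, the convertase that trims the endothelin precursor, was at 14.8, 14.8 and 14.8 FPKM in Ctrl and at 30.4, 30.0 and 27.8 FPKM in MIR21-KO replicates 1 to 3. It rose with a log2 fold change of 0.99 (SE 0.068) and an FDR of 0.000202, and remained called under all alternatives. CTSA, a lysosomal carboxypeptidase that degrades endothelin-1, rose from 20.8, 21.2 and 21.8 FPKM to 40.7, 36.1 and 31.3 FPKM. Its log2 fold change was 0.75 and its FDR 0.00274, which became 0.0153 to 0.0184 without Ctrl replicate 1, 2 or 3 or MIR21-KO replicate 2. The convertase PCSK6 had 1.40, 1.19 and 1.28 FPKM in Ctrl and 0.748, 0.747 and 0.751 FPKM in MIR21-KO libraries, with a log2 fold change of -0.71 and an FDR of 0.0215 that missed the threshold, and PCSK7 had a log2 fold change of 0.13 and an FDR of 0.388. EDN3, the peptidases MME (neprilysin, a major endothelin-degrading enzyme of the lung), ECEL1 and KEL, and the chymase CMA1 had at most 3 reads in every library. PCSK5, MMEL1 and PHEX were present but under the filter, at means of 0.117, 0.245 and 0.344 FPKM in Ctrl and 0.0406, 0.210 and 0.502 FPKM in MIR21-KO.

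The list of receptor coupling and desensitisation genes held 32 members, of which 24 were tested, 2 rose and 2 fell, a share close to the 16.0% of all genes. Its median log2 fold change was -0.02, equal to that of all genes at this precision. The Gq/11 alpha subunits, phospholipases C beta, IP3 receptors and protein kinases C, which carry the main signal of ETA, made up 15 genes of the list. Only 10 of them were tested, and 0 were called in limma on FPKM. Of the 10 tested, 1 had an unadjusted p under 0.05 and was called by voom, against 6910 and 3496 of all 16006 genes tested. This was the IP3 receptor ITPR2, named after its values were seen (FDR 0.0118 in limma on FPKM). ITPR2 averaged 1.58 FPKM in Ctrl and 4.20 FPKM in MIR21-KO, where replicates 1 to 3 were at 2.855, 3.658 and 6.077 FPKM. PLCB1, also named after its values were seen, lay under the filter and was not tested. It averaged 0.120 FPKM in Ctrl and 0.438 FPKM in MIR21-KO, and the groups did not overlap. The other untested genes, GNA14, GNA15, PLCB2 and PRKCB, had at most 4 reads in a library. The called genes were the Gs subunit GNAS, the regulator RGS2, the receptor kinase GRK6 and the arrestin ARRB2. GRK6, which phosphorylates active receptors, was at 9.74, 10.4 and 9.59 FPKM in Ctrl and at 4.50, 5.16 and 4.78 FPKM in MIR21-KO replicates 1 to 3, with a log2 fold change of -1.03 and an FDR of 0.000430. ARRB2, which uncouples phosphorylated receptors from G proteins, was at 16.4, 17.3 and 16.7 FPKM in Ctrl and at 8.61, 8.52 and 5.78 FPKM in MIR21-KO replicates 1 to 3. Its log2 fold change was -1.15 and its FDR 0.00272. RGS2, which shortens Gq signals, rose from 11.7 ± 1.15 to 19.2 ± 1.59 FPKM (SD, n = 3 each) with an FDR of 0.00310 in limma, and GNAS rose from 46.1 ± 1.31 to 68.6 ± 6.68 FPKM with an FDR of 0.00443. Without Ctrl replicate 1, 2 or 3 or MIR21-KO replicate 2 the calls of GNAS (FDRs 0.0219 to 0.0262) and ARRB2 (0.0103 to 0.0151) were lost, and that of RGS2 without Ctrl replicate 1 or 3 or MIR21-KO replicate 2 (0.0175 to 0.0198), whereas that of GRK6 was kept. GNAS also lost its call without trend and robust fitting (FDR 0.0119).

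**Figure D2:**
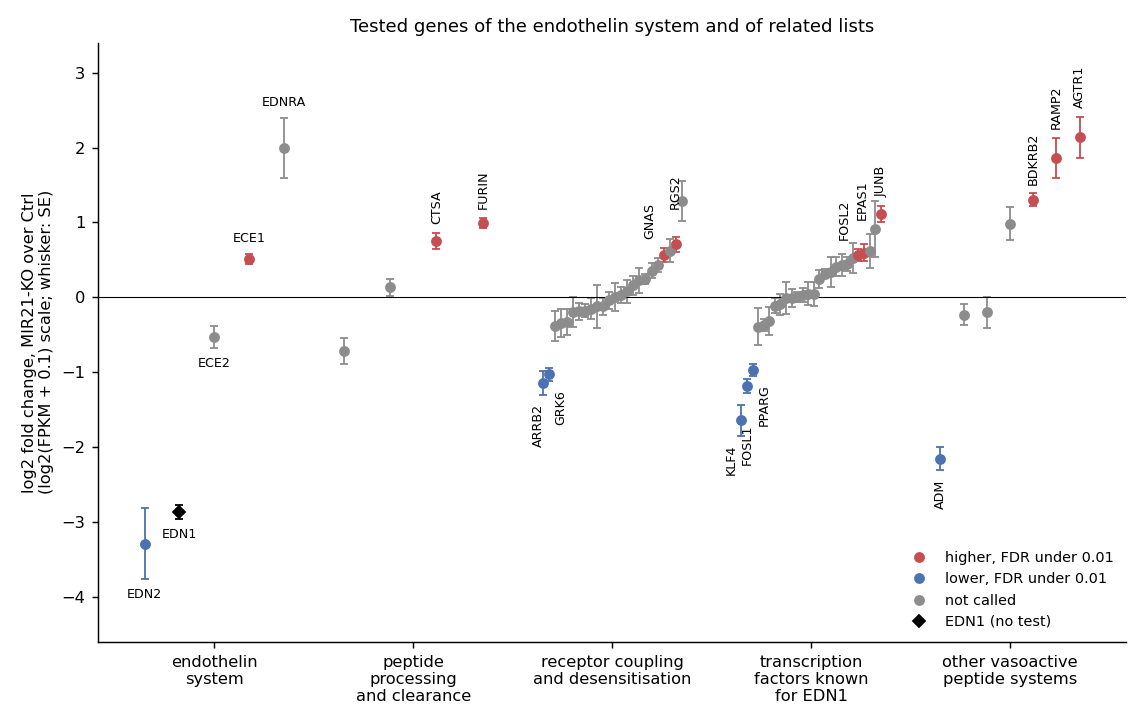
Log2 fold change, MIR21-KO over Ctrl, of each tested gene of the endothelin system and of 4 related lists, with the SE as a whisker, red for genes called higher, blue for genes called lower, grey for genes not called and a black diamond for EDN1, which was not tested. EDN1 and EDN2 lie at -2.86 and -3.29, whereas the coupling genes centre on a median of -0.02.

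The list of transcription factors known for EDN1 held 26 genes, including 2 coactivators and several members of single families. Whether each acts on the EDN1 promoter in these cells was not examined. All were tested, 3 rose and 3 fell, which is 23.1% called beside 16.0% of all genes tested. Their median log2 fold change was 0.05, against -0.02 over all genes tested. Of the 6 AP-1 subunits, JUNB rose from 36.3, 31.4 and 38.1 FPKM to 80.0, 80.5 and 69.1 FPKM (log2 fold change 1.12, FDR 0.000656), and FOSL2 rose from 40.6, 36.7 and 37.4 FPKM to 52.7, 56.7 and 60.6 FPKM (0.57, FDR 0.00337). FOSL1 fell from 35.8, 33.8 and 31.4 FPKM to 15.1, 16.0 and 13.2 FPKM (FDR 0.000373). Members of the family that reads AP-1 letters thus moved in both directions. Of the 3 hypoxia factors EPAS1 (HIF-2 alpha) rose from 25.4 ± 1.46 to 38.6 ± 5.39 FPKM (SD, n = 3 each) with an FDR of 0.00909 in limma, while 0 of the 3 GATA, 0 of the 3 SMAD and 0 of the 2 NF-kappaB genes were called. Of these 8, 4 had an unadjusted p under 0.05 in limma and voom called 1. Among all 16006 genes tested the counts were 6910 and 3496. The 4 were GATA2, GATA6 and SMAD2 with higher and NFKB1 with lower values, named after their values were seen. KLF4, a factor of vessel and epithelial cells, fell from 1.57, 1.83 and 2.30 FPKM to 0.542, 0.491 and 0.569 FPKM (FDR 0.00181). PPARG, a nuclear receptor whose agonists are known to lower EDN1, fell from 11.3, 11.5 and 11.2 FPKM to 6.13, 5.71 and 5.43 FPKM (FDR 0.000381). The calls of FOSL2 (FDRs 0.0133 to 0.0225) and EPAS1 (0.0275 to 0.0421) were lost without Ctrl replicate 1, 2 or 3 or MIR21-KO replicate 2, that of KLF4 without Ctrl replicate 2 or 3 or MIR21-KO replicate 2 (0.0113 to 0.0130), and those of JUNB, FOSL1 and PPARG were kept under all alternatives. EPAS1 also lost its call without a filter on low values (FDR 0.0191), with scaling by recovered reads (0.0194) and without trend and robust fitting (0.0209).

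Other vasoactive peptide systems were taken for comparison (31 genes, of which 7 were tested and 16 had at most 3 reads in every library). 3 receptors rose and 1 ligand fell, against 7.66% higher and 8.38% lower over all genes tested. Of the 3 receptors, AGTR1 and RAMP2 passed the filter only through the group in which they were high, as EDNRA did, so no count or median of this list is read as a result. ADM encodes adrenomedullin, a vasodilator, and was the only ligand of this list to pass the filter. It was at 6.27, 6.30 and 7.24 FPKM in Ctrl and at 1.49, 1.14 and 1.62 FPKM in MIR21-KO replicates 1 to 3, with a log2 fold change of -2.16 (SE 0.15) and an FDR of 0.000239. BDKRB2, the bradykinin B2 receptor, rose from 4.37, 4.37 and 4.45 FPKM to 11.9, 10.8 and 10.4 FPKM (log2 fold change 1.30, FDR 0.000170). AGTR1, the Gq-coupled angiotensin II receptor, rose from 0.452, 0.347 and 0.210 FPKM to 1.92, 1.64 and 1.75 FPKM (2.14, FDR 0.00203). RAMP2, the subunit that makes a calcitonin-type receptor bind adrenomedullin, rose from 0.283 ± 0.0670 to 1.28 ± 0.00241 FPKM with an FDR of 0.00310 in limma, from at most 20 reads in a library. That receptor, CALCRL, named after its values were seen, had 0 reads in Ctrl and 1, 1 and 4 reads in MIR21-KO replicates 1 to 3. Without MIR21-KO replicate 2 the call of AGTR1 was lost (FDR 0.0157), as was that of RAMP2 without Ctrl replicate 3 or any of the MIR21-KO libraries (0.0103 to 0.0263).

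The genes around EDN1 on chromosome 6 were compared with it to see whether they shared its level change. Of the 5 nearest protein-coding genes on each side, 7 were tested, 2 rose and 0 fell in limma on FPKM (3 higher and 1 lower at an unadjusted p under 0.05, and 3 called by voom). Over all 16006 genes tested, 7.66% rose and 8.38% fell, 6910 had an unadjusted p under 0.05 in limma and voom called 3496. The median log2 fold change of the 7 was 0.02, against -0.02 over all genes. HIVEP1, the nearest gene on the lower side, at 281.6 kb between gene starts, was at 1.77, 1.24 and 1.46 FPKM in Ctrl and at 1.10, 1.43 and 2.09 FPKM in MIR21-KO replicates 1 to 3, so the groups overlapped. The difference of 0.02 (log2, SE 0.26) had an FDR of 0.968. PHACTR1, the nearest gene on the upper side, had at most 10 reads in a library. TMEM170B, at 752.1 kb, was lower in each MIR21-KO library, with 1.23, 0.856 and 1.23 FPKM in Ctrl and 0.456, 0.352 and 0.599 FPKM in MIR21-KO, but was not called (log2 fold change -1.09, FDR 0.0261). TBC1D7 and GFOD1, at 976.2 and 1068 kb, rose from 2.13 ± 0.165 to 4.10 ± 0.293 FPKM and from 0.535 ± 0.104 to 1.59 ± 0.166 FPKM (SD, n = 3 each), with FDRs of 0.00202 and 0.00364 in limma. The call of TBC1D7 was lost without Ctrl replicate 2 or 3 or MIR21-KO replicate 2 (0.0113 to 0.0161), and that of GFOD1 without any single library (0.0101 to 0.0236). SIRT5, NOL7 and NEDD9 were not called (log2 fold changes 0.38, -0.13 and -0.19), and ADTRP and ERVFRD.1 lay under the filter, the latter at 0 in all libraries.

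**Figure D3:**
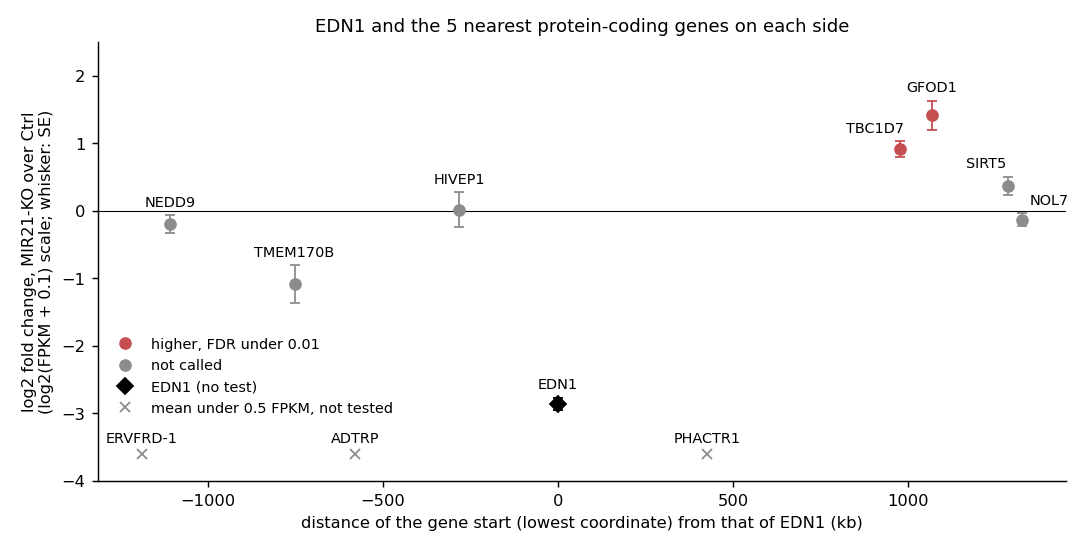
Log2 fold change, MIR21-KO over Ctrl, with the SE as a whisker, of EDN1 and the 5 nearest protein-coding genes on each side, plotted against the distance between lowest gene coordinates in kb. Crosses at the bottom stand for the 3 genes under the filter and carry no value. EDN1 lies at -2.86, while the tested neighbours run from -1.09 (TMEM170B) to 1.41 (GFOD1).

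Finally, the 5 protein-coding genes with the profile nearest to that of EDN1 over the 6 libraries were named, by the root mean square difference of log2(FPKM + 0.1) after centring each gene on its mean, among 11718 genes. They were ANKRD2 (difference 0.109), PPFIBP2 (0.130), CPS1 (0.138), TM4SF4 (0.140) and PLS1 (0.151). ANKRD2, an ankyrin-repeat protein best known from muscle, was at 3.79, 3.33 and 4.54 FPKM in Ctrl and at 0.455, 0.563 and 0.425 FPKM in MIR21-KO replicates 1 to 3. CPS1, the entry enzyme of the urea cycle, was at 2.20, 2.16 and 1.99 FPKM in Ctrl and at 0.239, 0.266 and 0.214 FPKM in MIR21-KO replicates 1 to 3. TM4SF4, a tetraspanin-like membrane protein, was at 8.66, 9.78 and 9.84 FPKM in Ctrl and at 1.13, 1.07 and 1.05 FPKM in MIR21-KO replicates 1 to 3. In each of these genes the group difference far exceeded the differences between libraries of a group, so that the likeness is mainly one of the size of this difference. None of the other endothelin system genes was among the 5.

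**Figure D4:**
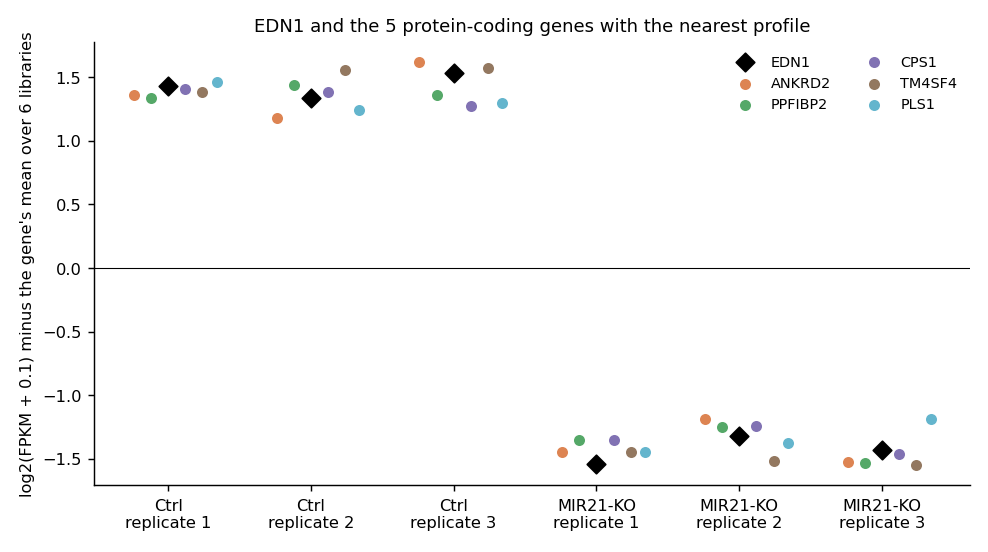
Centred log2(FPKM + 0.1) of EDN1 (black diamonds) and of the 5 protein-coding genes nearest to it (coloured points) in each of the 6 libraries, with points offset sideways for legibility. All 6 genes sit above their mean in the 3 Ctrl libraries and below it in the 3 MIR21-KO libraries, by similar amounts.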

How the data were processed

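PolyA RNA-seq of 6 A549 libraries was analysed, 3 Ctrl and 3 MIR21-KO, grouped by the sample titles. The authors deposited 1 table of 58174 genes holding gene lengths, FPKM values per library and the results of their own comparison (log2 fold changes, p-values and FDRs), which were not used. The submitters' processing notes name cutadapt 1.14, HISAT2 2.1.0, SAMtools 1.5, featureCounts 1.5.3, edgeR 3.18.1 and hg38. The annotation release, the strand setting and the treatment of reads shared between genes are not given in the sources used here, so reads of overlapping genes may be counted together. FPKM times gene length gave whole multiples of 1 step per library (within 0.001 reads) for 100% of values, from which reads were recovered. They summed to between 10631667 and 14345209 per library. All 37 mitochondrial genes are listed at 0, so a listed 0 can come from the upstream processing.

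The 16006 genes averaging 0.5 FPKM or more entered limma 3.58.1 (R 4.3.3) as log2(FPKM + 0.1) (trend, robust, two-sided, no covariate), adjusted by Benjamini-Hochberg over all of them and called at an FDR under 0.01. Fold changes on this scale understate those of low genes. Intervals of pooled ratios are exact 95% intervals on read sums and cover counting error only, as does the floor of 3 reads for a level of 0. On simulated data of this depth 179 of 200 genes changed 2-fold were recovered, with 5 false calls among 16006. The changed genes were picked among well-covered genes, and the spread between simulated libraries was assumed, not estimated from these data. The recovery therefore does not cover genes with few reads, such as EDN2, EDNRA and RAMP2. Members and lists were chosen with earlier results of these data known. Named were all members, processing enzymes and neighbours, called genes of the other lists and the 5 genes nearest to EDN1, and a few further genes where the text says so or where a marker list is described. Alternatives were to block on the replicate number, to leave out each library, constants of 1 and 0.01, no filter or a mean of 5 FPKM, scaling by recovered reads or median ratios, an FDR of 0.05, no trend, and voom on recovered reads. Replicate numbers did not pair the libraries (correlations of deviations -0.171, -0.0177 and -0.0174). Coordinates, exons and 3' UTRs came from GENCODE 29 (GRCh38), promoters and miRNAs from RefSeq (GRCh38.p14), where 5 of the 6 members had a promoter. Figures were drawn with matplotlib 3.10.9.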

Additional observations from a re-analysis of the deposited data

How the results depend on the processing

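None of the members' log2 fold changes turned direction under any setting run. EDN1 was chosen for its direction, and the groups did not overlap for the other 4 tested members. Most settings could therefore not turn a direction, and this is no support for the changes. Calls at an FDR under 0.01 depended more on the setting. The libraries share only replicate numbers, whose deviations did not correlate, and with the number as a replicate block limma called 0 of the 4 tested members (4 at an unadjusted p under 0.05) in place of 2, 1 in place of 2 processing genes, 1 in place of 4 coupling genes, 3 in place of 6 transcription factors, 2 in place of 4 genes of the other vasoactive systems and 0 in place of 2 neighbours (3 at an unadjusted p under 0.05), against 651 in place of 2568 over all genes, of which 649 were shared. Under the block the FDR of EDN2 was 0.0158 and that of ECE1 0.0267, and 5898 of all 16006 genes had an unadjusted p under 0.05 in limma. Leaving out each library in turn gave 0 to 2 members, 1 to 2 processing, 1 to 7 coupling, 3 to 8 transcription factor, 2 to 4 vasoactive and 0 to 1 neighbour genes, and 784 to 3418 over all genes. The fewest over all genes came without MIR21-KO replicate 2, and 889 to 933 without a Ctrl library. The most, 3418, came without MIR21-KO replicate 3. Where 0 members were called, without a Ctrl library, 4 had an unadjusted p under 0.05 in limma, as had 5769 to 5937 of all genes. At an FDR under 0.05, 4 members, 9 coupling genes and 5114 genes in all passed. With a constant of 0.01 FPKM 1 member was called. With a mean of at least 5 FPKM 1 member, 1 vasoactive gene and 0 neighbours were called, since only 1, 1 and 2 were then tested (0 neighbours at an unadjusted p under 0.05 in limma). Voom on recovered reads called 7 coupling genes and 3496 genes in all. Why these counts moved was not tested. Scaling moved the median log2 fold change of all genes from -0.02 to -0.05 with recovered reads and left it at -0.02 with median ratios. EDN2, EDNRA and RAMP2 are limited by depth, with at most 61 reads in every library, and EDNRB and EDN3 cannot be told from genes expressed below the floor.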
